A study of Mus musculus with 16 samples.

Results

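The arrays described here are those of CD4+ T cells given IL-6 and no other cytokine. They are 4 of the 16 Affymetrix arrays of the series, chosen by their sample titles: 2 of STAT3-deficient and 2 of wild-type (WT) cells, each genotype with a replicate 1 and a replicate 2. Levels of 13007 named genes were compared between the genotypes, on group means and within each replicate number. The STAT3-deficient cells carried floxed Stat3 together with a Cre recombinase under CD4 control, which acts from T cell development onwards, and the WT cells carried floxed Stat3 without Cre. Cells with Cre alone were not analysed here. All 4 cultures began as naive CD4+ T cells sorted as CD44- CD62L+, and all were stimulated through CD3 and CD28 for 3 days with IL-6 at 10 ug/ml, in the unit the labels give. The 12 other arrays are the same genotypes in medium, with TGFb (2.5 ug/ml) or with both cytokines, again with 2 arrays each. The labels do not say whether replicates came from separate animals or cultures. The sex-linked genes described below set replicate 1 and replicate 2 apart as female and male, so their donors differed. How many animals each stands for is not known, and a p-value here measures only the spread between these samples.

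IL-6 binds its own receptor chain and the shared chain gp130, and the JAK kinases bound to gp130 then phosphorylate STAT3. Phosphorylated STAT3 pairs up, enters the nucleus and binds DNA at the palindrome TTCNNNGAA, where N is any base. Among its known targets are Socs3, which shuts off gp130 signalling, and, in CD4+ T cells, Il21 and genes of the Th17 and follicular helper programmes. In mouse cells IL-6 needs TGFb beside it to induce the Th17 cytokine Il17a.

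A level in what follows is the log2 of the deposited intensity. A gene was called changed at an adjusted p under 0.05 in limma's moderated test, which was fitted over all 16 arrays and adjusted over the 13007 genes tested. Levels under log2 6 were taken as near background, and the size of a change that reaches below it depends on that background.

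Some of the 16 arrays stood apart. WT IL-6 replicate 1 read the small nucleolar RNA host genes at a median level of 8.88, against 10.09 to 11.05 on the 12 arrays of other conditions, and the respiratory chain genes at 10.81, against 11.76 to 12.25. STAT3-deficient IL-6 replicate 1 had the lowest upper quartile of all arrays (7.70), with 7.86 on its replicate 2, against 8.09 and 8.06 on the WT IL-6 arrays. STAT3-deficient IL-6 replicate 2 had the most negative gap between the 5' and 3' control probe sets of Actb, a sign of RNA quality, at -1.71, with -0.27 on its replicate 1. The WT IL-6 arrays read -0.11 and -0.999. Replicate 1 arrays read the female-specific transcript Xist high and the Y-linked gene Eif2s3y low, and replicate 2 arrays the reverse in all 8 groups. Replicate 1 thus came from female and replicate 2 from male cells, so the spread within a group includes any difference by sex. It also includes any difference by RNA quality, as the Actb gap was more negative on replicate 2 in all 8 groups. The WT IL-6 replicates differed 2-fold or more in 11.9% of genes, and the STAT3-deficient IL-6 replicates in 6.23%. STAT3-deficient TGFb replicate 1 read Il17a at 9.55, against 6.29 on replicate 1 of the STAT3-deficient cells given IL-6 and TGFb. The counts of calls under both cytokines, and of the test against that condition, are therefore given with and without these arrays where no block is fitted. These arrays also enter the estimate of spread that all groups share, so the calls under IL-6 alone depend on them as well.

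The deleted gene was lower in the cells labelled deficient. Stat3 read 8.73 and 8.57 in STAT3-deficient cells and 11.42 and 12.10 in WT cells, on its brightest probe set. The groups did not overlap. The log2 change was -3.10 (SE 0.58, adjusted p = 0.0224), or 8.59-fold lower. The call was lost without either STAT3-deficient array (adjusted p = 0.105 and 0.0805) or without WT IL-6 replicate 2 (adjusted p = 0.0635), with the change between -3.44 and -2.76 whichever array was left out. A further probe set of Stat3 changed by -3.57, and the dimmer ones by -1.24 and -0.31. Where these probe sets lie relative to the deleted exons is not known here, so a residual level is no measure of residual protein.

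STAT3 loss under IL-6 was marked by falls more than rises. Of the 13007 genes, 355 (2.73%) were lower without STAT3 and 73 (0.561%) were higher, 428 (3.29%) together. Of these, 346 changed 2-fold or more, 282 lower and 64 higher. At an unadjusted p under 0.05 the count was 2826, with 1861 lower and 965 higher. Every one of the 428 called genes had groups that did not overlap, which forces the same sign in both replicate pairs. The calls were made from these same values, so neither property is further support for them. Over all genes tested, 27% had non-overlapping groups with STAT3-deficient cells lower and 20% with them higher, and 61.2% kept their sign in both pairs. With the replicate number as a block in the fit, since same-numbered arrays deviated together, 1490 genes (11.5%) were called: 1181 lower and 309 higher, among them all 428. In 47 of the falls the mean in STAT3-deficient cells was under log2 6, and in 9 of the rises the mean in WT cells was.

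The count rested on which arrays were in the fit. It was 27 without STAT3-deficient IL-6 replicate 1, 102 without its replicate 2, 213 without WT IL-6 replicate 1 and 547 without WT IL-6 replicate 2. In the last of these fits, where the WT array that stands apart is alone, 312 genes were higher and 235 lower. A further quantile normalization of the arrays gave 122 higher and 198 lower, so that 38.1% of calls were higher, against 17.1% as deposited. With replicate 1 of the STAT3-deficient cells given TGFb exchanged with that given IL-6 and TGFb, 339 genes were called, 48 higher and 291 lower. Of these, 313 were among the 428. Of the 63 called genes that the naming rule chose, 9 kept their call whichever of the 4 arrays was left out: Il21, Maf, Tha1, Hhex, Ecm1, Adamtsl4, Gm17767, Trib2 and Tnfsf11. S100a6, Epcam, Vim, Adam19, Adam8 and Ms4a1, which are given with values further on, were not part of that count.

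**Figure D1:**
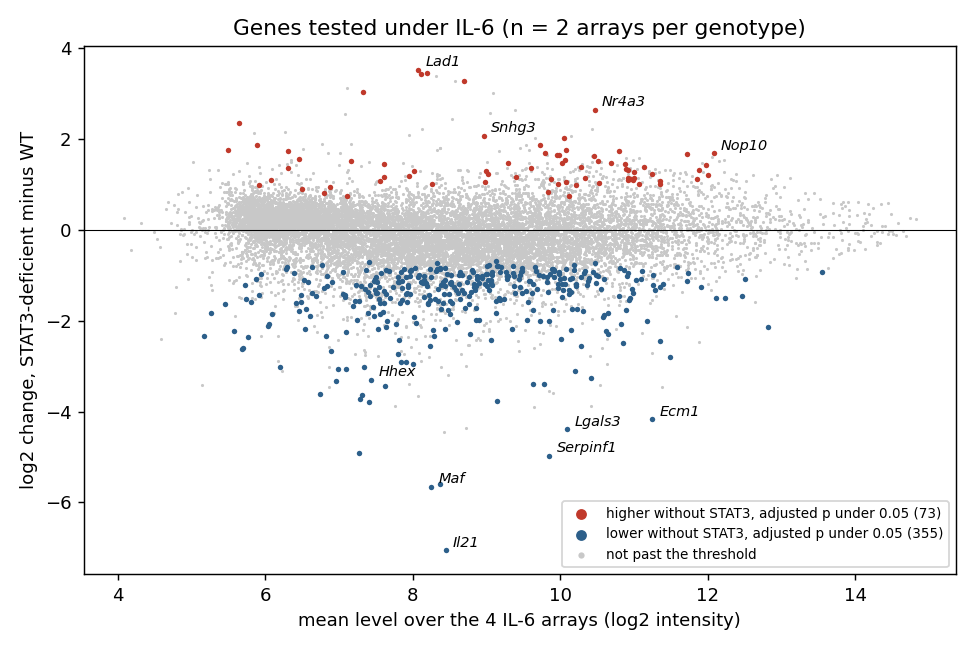
Each point is 1 of the 13007 genes tested: the horizontal axis is its mean level over the 4 IL-6 arrays (log2 intensity) and the vertical axis its log2 change, STAT3-deficient minus WT. Called genes are coloured, 73 higher and 355 lower, and the falls reach -7.05 (Il21) while the rises stop at 3.51 (Lad1).

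Genes of the cytokine's own signalling loop were lower without STAT3. In a list of 37 measured STAT3 target and feedback genes, 5 were called, all lower, against 2.73% of all genes called lower and 0.561% called higher. With the block 16 were called, all lower, against 9.08% and 2.38% of all genes. The median change of the list was -1.10, against -0.03 over all genes, and at an unadjusted p under 0.05 19 members were lower and 0 higher. These counts include Stat3, the deleted gene, whose fall was fixed by the design and says nothing about its targets. The other members that fell without the block were Prdm1, Jak3, Jak2 and Zfp36. The number that fell was 0 to 4 with any 1 of the 4 arrays left out, and 0 without STAT3-deficient IL-6 replicate 1.

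Prdm1, which encodes the transcriptional repressor Blimp-1, read 5.21 and 5.70 in STAT3-deficient cells and 9.53 and 7.48 in WT cells. All 4 arrays kept the genotypes apart, with WT replicate 1 far above WT replicate 2. The change was -3.05 (SE 0.55, adjusted p = 0.0212). Jak3, the kinase of receptors with the common gamma chain, fell by 1.30, and Jak2, a kinase that can associate with gp130, fell by 1.27 (adjusted p = 0.0155 and 0.038). In medium Jak3 read 9.08 and 9.25 in STAT3-deficient and 9.66 and 9.78 in WT cells. The difference between its changes under IL-6 and in medium (-0.75) did not pass limma's test (adjusted p = 0.574). Zfp36, which encodes tristetraprolin, a protein that destabilises cytokine mRNAs, fell by 1.56 (adjusted p = 0.0312).

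Socs3 had the largest difference of the list, at the edge of the threshold. It read 8.19 and 8.79 in STAT3-deficient cells and 12.18 and 12.54 in WT cells. Both WT arrays were far above both STAT3-deficient arrays. The change of -3.87 (SE 1.05) missed the threshold (adjusted p = 0.0692), and in the fit with the block it passed (adjusted p = 0.011). Its levels in medium were 7.67 and 9.84 in STAT3-deficient cells and 7.39 and 10.46 in WT cells, so the replicates of that condition differed more than the genotypes did. Bcl3, a nuclear cofactor of NF-kB, read 6.77 and 7.69 in STAT3-deficient cells and 9.63 and 10.81 in WT cells, a difference of -2.99 that missed the threshold without the block (adjusted p = 0.0546) and passed with it (adjusted p = 0.00133). With the Actb difference beside the block the adjusted p was 0.0235, and at a level minimum of log2 7 without the block it was 0.0493. The AP-1 subunits Jun and Fosl2 changed by -2.54 and -2.11, Stat5a by -1.42 and Il6st, the gene of gp130, by -1.41. These 4 passed only with the block (adjusted p = 0.00996, 0.0314, 0.0339 and 0.0269). 1 of the bright other Il6st probe sets had the opposite sign, at 0.09. Cish and Pim1, feedback and kinase targets of STAT proteins, changed by -0.86 and -0.73 and Il6ra, the IL-6 receptor chain, by -0.74 (adjusted p = 0.455, 0.576 and 0.432), with 0.26 on the other Il6ra probe set.

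The promoters of the panel genes and of the largest changes were read for the STAT palindrome. RefSeq windows (GRCm38.p6) from 250 bases before to 50 bases after each gene's start were searched for TTCNNNGAA, which reads the same on both strands. Of the 60 genes in a panel of cytokine pathway genes and in the 20 largest changes each way, 53 had such a window and 8 of these (15.1%) held the motif. Of these 8, Bcl6, Cish, Foxp3, Ifng and Socs3 were panel genes that the test did not call. Among the largest changes Emp1, Moxd1 and Vmn1r58 held it, the window of Il21 did not, and Maf had no window. The motif was present in 25 of 297 windows of genes that fell (8.42%) and 7 of 60 of genes that rose (11.7%), against 860 of 10505 of the genes tested (8.19%). These shares are a description of the letters in short windows. The 4 windows with the largest changes are printed with the motif in capitals, because they show where it lies near the start of Socs3 (chr11:117969317-117969616, minus strand, motif at base -154 from the start), Emp1 (chr6:135362681-135362980, plus strand, motifs at -120 and -22), Ifng (chr10:118440796-118441095, plus strand, -249) and Moxd1 (chr10:24223267-24223566, plus strand, -150).
Socs3: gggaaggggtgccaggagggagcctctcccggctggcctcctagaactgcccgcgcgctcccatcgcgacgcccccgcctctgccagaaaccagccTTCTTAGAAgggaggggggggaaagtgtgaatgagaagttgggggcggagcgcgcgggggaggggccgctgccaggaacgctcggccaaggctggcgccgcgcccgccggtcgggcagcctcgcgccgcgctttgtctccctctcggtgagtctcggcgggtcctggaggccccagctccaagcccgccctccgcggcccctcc
Emp1: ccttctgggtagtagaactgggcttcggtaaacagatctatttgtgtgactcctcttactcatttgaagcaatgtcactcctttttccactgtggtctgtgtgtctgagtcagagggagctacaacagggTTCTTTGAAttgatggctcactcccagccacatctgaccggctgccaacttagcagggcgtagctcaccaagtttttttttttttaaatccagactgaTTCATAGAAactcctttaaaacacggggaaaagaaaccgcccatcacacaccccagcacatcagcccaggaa
Ifng: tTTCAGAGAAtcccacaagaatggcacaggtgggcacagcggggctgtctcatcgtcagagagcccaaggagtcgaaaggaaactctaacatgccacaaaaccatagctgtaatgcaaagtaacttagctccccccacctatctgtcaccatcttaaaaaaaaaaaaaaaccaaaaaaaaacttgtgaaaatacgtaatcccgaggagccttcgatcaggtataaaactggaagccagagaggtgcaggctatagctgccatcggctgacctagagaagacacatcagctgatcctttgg
Moxd1: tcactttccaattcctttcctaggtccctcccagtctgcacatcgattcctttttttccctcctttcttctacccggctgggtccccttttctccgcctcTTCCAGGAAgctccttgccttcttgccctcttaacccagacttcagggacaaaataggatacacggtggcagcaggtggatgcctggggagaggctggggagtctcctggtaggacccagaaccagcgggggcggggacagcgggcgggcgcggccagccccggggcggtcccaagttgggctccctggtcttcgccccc
Of these genes, Emp1 and Moxd1 passed the test and Socs3 passed with the block. Ifng, the Th1 cytokine gene, read 8.88 and 11.13 in STAT3-deficient cells and 7.89 and 5.36 in WT cells, with a change of 3.38 that passed neither test (adjusted p = 0.294 without and 0.213 with the block).

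Il21 showed the largest change of all genes tested. This cytokine of Th17 and follicular helper cells read 4.75 and 5.09 in STAT3-deficient cells and 12.23 and 11.71 in WT cells. Both STAT3-deficient arrays were under log2 6, at levels like those of medium, where Il21 read 4.64 and 5.73 in STAT3-deficient and 4.75 and 5.49 in WT cells. The change was -7.05 (SE 0.53, adjusted p = 0.000371), and on the other Il21 probe set it was -3.74. Within replicate 1 it was -7.47 and within replicate 2 -6.63.

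Several transcription factor genes also fell. Maf, the factor c-Maf, which drives Il21, read 5.13 and 5.73 in STAT3-deficient cells and 10.34 and 11.82 in WT cells. No value of one genotype came near the other. The change was -5.65 (SE 0.47, adjusted p = 0.000424), and on the 5 other Maf probe sets it lay between -5.38 and -0.38. Ahr, the aryl hydrocarbon receptor, read 5.55 and 5.04 in STAT3-deficient cells and 7.47 and 9.78 in WT cells, and Ikzf3, which encodes the zinc finger factor Aiolos, read 8.54 and 9.04 against 12.65 and 11.45 in WT cells. Their changes were -3.32 and -3.26 (adjusted p = 0.0235 and 0.0245). Hhex, a homeobox repressor that is in neither the Th17 nor the follicular helper list, read 5.55 and 6.02 in STAT3-deficient cells and 9.36 and 8.83 in WT cells, a change of -3.31 (SE 0.27, adjusted p = 0.000405). The nuclear receptor gene Rora fell by 1.93 (adjusted p = 0.0242), while 2 of its 5 other bright probe sets had the opposite sign. Batf, an AP-1 factor required for Th17 cells, changed by -1.47 (adjusted p = 0.117).

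Of 27 measured Th17 genes 6 were called, all lower (median change -1.01), against 2.73% of all genes called lower, and with the block 7, all lower, against 9.08%. The members that fell were Il21, Maf, Lgals3, Ahr, Ikzf3 and Rora. The count was 2 to 6 with any 1 of the 4 arrays left out, and 2 without STAT3-deficient IL-6 replicate 1. Il17a itself read 6.04 and 6.09 in STAT3-deficient cells and 5.95 and 6.25 in WT cells, near background in both (adjusted p = 0.985). Of 18 follicular helper genes 2 fell, again Il21 and Maf, and Bcl6, the factor that defines those cells, read 6.64 and 5.58 in STAT3-deficient and 6.17 and 6.27 in WT cells (adjusted p = 0.935). Il10 read 4.64 and 6.27 in STAT3-deficient cells and 8.69 and 6.19 in WT cells, so a difference was seen in replicate 1 alone (adjusted p = 0.249).

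**Figure D2:**
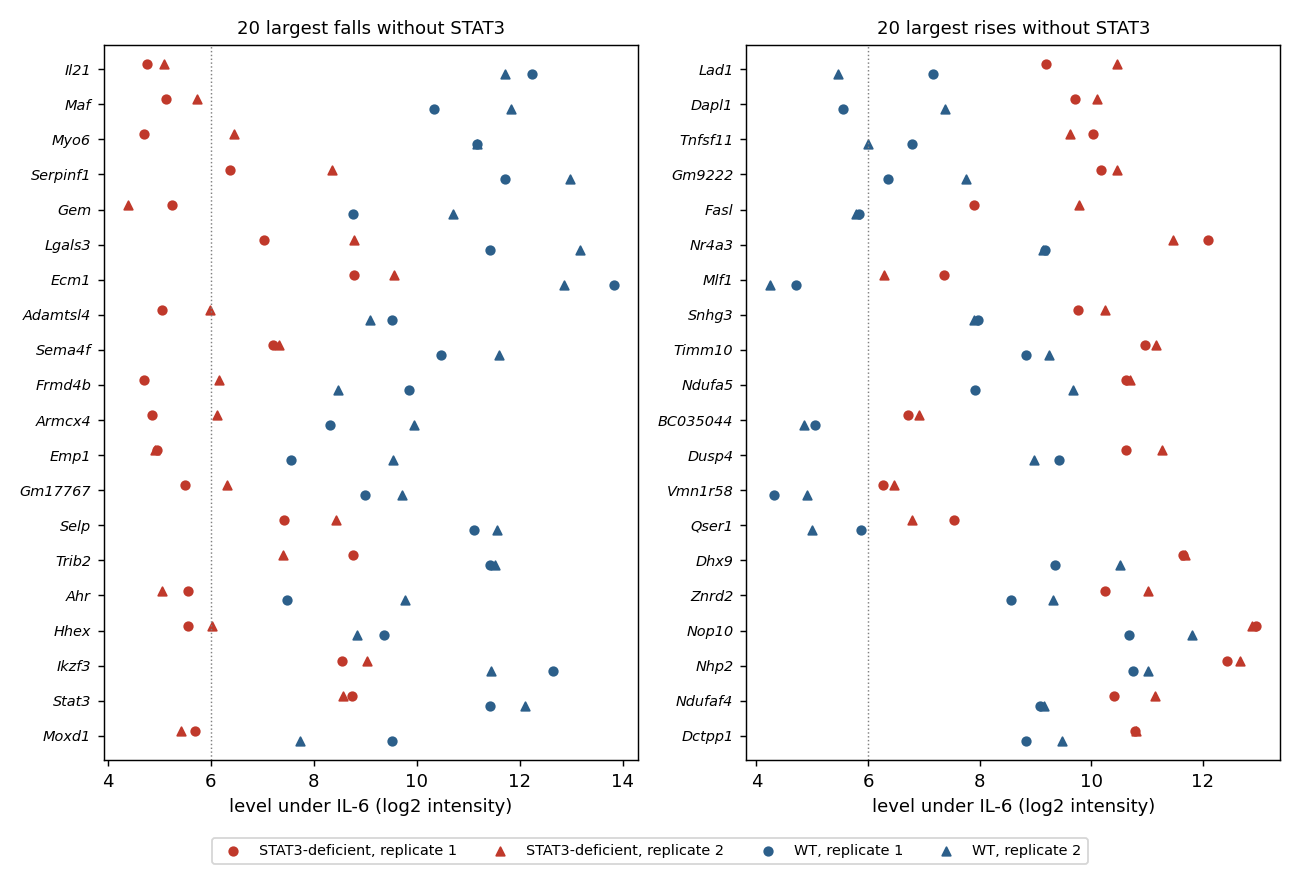
Levels of the 20 genes that fell most (left) and the 20 that rose most (right) on the 4 IL-6 arrays, in log2 intensity; circles are replicate 1, triangles replicate 2, red STAT3-deficient and blue WT, and the dotted line is log2 6. The genotypes are apart for all 40 genes because the genes were chosen among those called whose groups did not overlap. Several falls, such as Il21 and Maf, end below log2 6.

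A set of secreted, matrix and surface proteins fell beside the cytokine genes. Over all genes 2.73% were called lower, and 9.08% with the block. Of 36 measured matrix, adhesion, lectin and protease inhibitor genes, 11 were called, all lower, with and without the block (median change -0.65). The count was 2 to 11 with any 1 of the 4 arrays left out, and 2 without STAT3-deficient IL-6 replicate 1. This list was drawn up with genes of earlier results on these arrays in view, so its count is not independent evidence of its direction.

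Ecm1, a secreted matrix protein that is also made by Th2 cells, read 8.78 and 9.55 in STAT3-deficient cells and 13.83 and 12.85 in WT cells. The change was -4.17 (SE 0.41, adjusted p = 0.00124), all of it well above background. Serpinf1, a secreted serpin known as pigment epithelium-derived factor, read 6.38 and 8.35 in STAT3-deficient cells and 11.71 and 12.98 in WT cells. In both genotypes replicate 2 was the higher, and the change was -4.98 (adjusted p = 0.00807). Lgals3, which encodes galectin-3, a lectin, read 7.02 and 8.78 in STAT3-deficient cells and 11.42 and 13.17 in WT cells. Its replicates differed within each genotype, yet the change was -4.39 in both pairs (adjusted p = 0.0143).

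Further members fell by over 3 log2 units. Adamtsl4, an ADAMTS-like matrix protein, changed by -3.80 (adjusted p = 0.00433), the semaphorin Sema4f by -3.77 (adjusted p = 0.0155) and the membrane protein Emp1 by -3.62 (adjusted p = 0.0319). Adamtsl4 and Emp1 had a mean under log2 6 in STAT3-deficient cells, and the other bright Emp1 probe set changed by 0.16. The remaining 5, named after their values were seen, were S100a6, Epcam, Vim, Adam19 and Adam8, with changes of -2.90, -2.57, -2.14, -1.45 and -1.24. Vim encodes the intermediate filament vimentin, S100a6 a calcium-binding protein and Adam8 and Adam19 membrane proteases.

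Among other large falls, Myo6, an actin motor, read 4.70 and 6.44 in STAT3-deficient cells and 11.16 and 11.16 in WT cells (change -5.59, adjusted p = 0.0453). Gem, a small GTPase, read 5.25 and 4.39 in STAT3-deficient cells and 8.76 and 10.71 in WT cells (change -4.91, adjusted p = 0.0143). Selp, the adhesion molecule P-selectin, and Trib2, a pseudokinase, had changes of -3.40 and -3.39 (adjusted p = 0.0265 and 0.00621). Trib2 read 8.77 and 7.39 in STAT3-deficient cells and 11.42 and 11.52 in WT cells. Frmd4b, Armcx4, Gm17767 and Moxd1, a copper monooxygenase-like protein, had changes of -3.73, -3.65, -3.44 and -3.06 (adjusted p = 0.0439, 0.0286, 0.00433 and 0.0155). Tha1, a threonine aldolase, was lower by less but with little spread: it read 5.62 and 6.04 in STAT3-deficient cells and 8.90 and 8.80 in WT cells (change -3.02, SE 0.28, adjusted p = 0.000827).

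Receptors and signalling chains fell by smaller amounts. Of 29 measured cytokine receptors and JAK kinases, 4 were called, all lower, with a median change of -0.995, against 2.73% of all genes called lower. With the block 10 were lower, against 9.08% of all genes, and 2 with the Actb difference beside the block. After quantile normalization 1 was lower. The 4 were Jak3, Jak2, the TGFb receptor chain Tgfbr2 (-1.20, adjusted p = 0.0303) and Il27ra (-1.11, adjusted p = 0.0265), the ligand-binding chain of the IL-27 receptor. Tgfbr2 read 9.51 and 9.33 in STAT3-deficient cells and 10.72 and 10.52 in WT cells, and its other probe sets changed by -0.40 and 0.35. Il1r2, the decoy receptor of IL-1, changed by -2.36 and passed only with the block (adjusted p = 0.0698 and 0.0216). Without STAT3-deficient IL-6 replicate 1 none of the members passed limma's test.

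The lists of naive cell, homing and migration genes were mixed. Of 30 naive, quiescence and homing genes 3 fell and 1 rose (median change -0.71), against 2.73% of all genes called lower and 0.561% called higher. With the block 8 fell and 1 rose, against 9.08% and 2.38%, and with the Actb difference added 1 fell and 1 rose. Leaving out any 1 of the 4 arrays left 0 or 1 fall, and the 1 fall was without WT IL-6 replicate 1. The rise was lost without either STAT3-deficient array. Those that fell were Selp, Igfbp4, an IGF-binding protein of naive T cells (-2.80, adjusted p = 0.0245), and the integrin chain Itgb7 (-0.97, adjusted p = 0.0271), and the one that rose was Dapl1. Of 26 chemokines and chemokine receptors, S1pr4, a sphingosine-1-phosphate receptor, was the 1 member called, lower by 1 log2 unit (adjusted p = 0.034). Over all genes 2.73% were called lower. With the block 2 members were higher and 3 lower, against 2.38% and 9.08% of all genes. The macrophage inflammatory proteins Ccl3 and Ccl4 were higher (3.01 and 2.02, adjusted p = 0.023 and 0.0215) and, besides S1pr4, Cxcr4 and S1pr1 lower (-2.54 and -1.53, adjusted p = 0.00744 and 0.0248).

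Death ligands and factors downstream of the T cell receptor moved in both directions. Of 24 TNF superfamily members 2 were called, both higher, against 0.561% of all genes called higher. Tnfsf11, which encodes RANKL, the ligand that drives osteoclast formation, read 10.03 and 9.62 in STAT3-deficient cells and 6.79 and 6.00 in WT cells. The groups were apart by over 2 log2 units, and the change was 3.43 (SE 0.38, adjusted p = 0.00352). In medium Tnfsf11 read 10.54 and 9.62 in STAT3-deficient and 10.42 and 9.55 in WT cells, so of these arrays the WT IL-6 ones stood low. Fasl, the ligand of the death receptor Fas, read 7.90 and 9.78 in STAT3-deficient cells and 5.83 and 5.78 in WT cells (change 3.04, adjusted p = 0.0275).

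Of 39 T cell receptor induced activation factors, 2 rose and 2 fell, against 0.561% and 2.73% of all genes. With the block 2 rose and 6 fell, against 2.38% and 9.08% of all genes, and with any 1 of the 4 arrays left out 0 or 1 passed each way. Nr4a3, an orphan nuclear receptor induced by antigen, read 12.10 and 11.47 in STAT3-deficient cells and 9.17 and 9.13 in WT cells, a change of 2.63 (adjusted p = 0.0224), while its other probe sets changed by -0.17 and 0.30. Dusp4, a phosphatase of MAP kinases, rose by 1.75 (adjusted p = 0.0428). Gem and Tnfaip3, which encodes A20, an inhibitor of NF-kB, fell, Tnfaip3 by 1.91 (adjusted p = 0.0455). Among 28 survival and death genes, 3 fell and 1 rose, against 2.73% and 0.561% of all genes: Tnfaip3, Birc2, an inhibitor of apoptosis (-1.13, adjusted p = 0.0319), and Cflar, the caspase-8 inhibitor FLIP (-1.01, adjusted p = 0.0419), were lower and Fasl was higher. None of the 28 fell in limma's test without either STAT3-deficient array, without WT IL-6 replicate 1 or after quantile normalization, and 3 fell without WT IL-6 replicate 2. Bcl2 changed by -1.09 (adjusted p = 0.33).

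Other genes that rose most were Lad1, an anchoring filament protein of basement membranes, and Dapl1, an early marker of epithelial differentiation that T cells also express. Lad1 read 9.20 and 10.46 in STAT3-deficient cells and 7.17 and 5.46 in WT cells (change 3.51, SE 0.64, adjusted p = 0.0212). Dapl1 read 9.72 and 10.11 in STAT3-deficient cells and 5.55 and 7.38 in WT cells (change 3.45, adjusted p = 0.0155). Neither gene overlapped between genotypes, although both varied by over 1 log2 unit between the WT arrays. Gm9222, Mlf1, BC035044, the vomeronasal receptor gene Vmn1r58 and Qser1 rose by 3.26, 2.35, 1.86, 1.75 and 1.73. Mlf1, BC035044, Vmn1r58 and Qser1 had a mean under log2 6 in WT cells.

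Genes of mitochondria and of ribosome assembly were among the rises. Of 60 mitochondrial import and ribosome genes 7 were called, all higher, against 0.561% of all genes called higher and 2.73% called lower, with a median change of 0.69. Of 71 respiratory chain genes 3 were called (median 0.76), of 59 ribosome biogenesis genes 3 (median 0.63) and of 12 small nucleolar RNA host genes 1 (median 0.58), all higher. With the block the rises were 21, 11, 6 and 2, against 2.38% of all genes, and 1 respiratory chain gene fell. With the Actb 5' minus 3' difference beside the block they were 2, 0, 1 and 1 in limma's test.

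Timm10, a chaperone of the mitochondrial intermembrane space, read 10.97 and 11.16 in STAT3-deficient cells and 8.83 and 9.25 in WT cells. The arrays of a genotype lay close together, and the change was 2.02 (SE 0.36, adjusted p = 0.0194). Ndufa5, a subunit of complex I, read 10.62 and 10.69 in STAT3-deficient cells and 7.91 and 9.67 in WT cells, so that WT replicate 1 carried much of the change of 1.87 (adjusted p = 0.0445). Ndufa4 and the ATP synthase gene Atp5g1 rose by 1.42 and 1.63 (adjusted p = 0.0428 and 0.0404). Mrpl13 and Mrpl42, proteins of the mitochondrial ribosome, rose by 1.37 and 1.34, and the import chaperone Timm13 rose by 1.38 (adjusted p = 0.0155, 0.0234 and 0.048). Ndufaf4, an assembly factor of complex I, rose by 1.65 (adjusted p = 0.024).

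The 3 ribosome biogenesis genes that rose belong to the same complex. Nop10, Nhp2 and Gar1 encode core proteins of H/ACA ribonucleoproteins, which guide pseudouridylation of RNA. Nop10 read 12.96 and 12.88 in STAT3-deficient cells and 10.69 and 11.80 in WT cells, Nhp2 12.43 and 12.66 against 10.75 and 11.02 in WT cells, and Gar1 11.57 and 11.63 against 10.25 and 10.07 in WT cells. Their changes were 1.68, 1.66 and 1.44 (adjusted p = 0.0271, 0.0212 and 0.0155). Dkc1, the catalytic protein of the same complex, changed by 0.97 and did not pass (adjusted p = 0.196). Snhg3, which hosts H/ACA small nucleolar RNAs in its introns, read 9.76 and 10.24 in STAT3-deficient cells and 7.97 and 7.90 in WT cells (change 2.06, adjusted p = 0.0112). The RNA helicase Dhx9, Znrd2 and the nucleotide hydrolase Dctpp1 rose by 1.72, 1.70 and 1.64 (adjusted p = 0.0241, 0.0314 and 0.0396).

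Where these group differences lay depended on the list. Respiratory chain genes differed mostly in replicate 1 and ribosome biogenesis genes in replicate 2. Mitochondrial import and ribosome genes differed in both, with median differences of 0.554 in replicate 1 and 0.653 in replicate 2. Median levels of the respiratory chain genes were 11.90 and 12.29 on the STAT3-deficient arrays, against 10.81 and 11.88 on the WT arrays. Without WT IL-6 replicate 1 none of them passed limma's test, and without WT IL-6 replicate 2 46 were higher. For mitochondrial import and ribosome genes the counts were 1 and 19. Ribosome biogenesis genes had medians of 10.08 and 10.53 on the STAT3-deficient arrays and 10.07 and 9.13 on the WT arrays, so their shift lay in replicate 2, and 4 rose without WT IL-6 replicate 1. With either STAT3-deficient IL-6 array left out, no member of these 3 lists passed limma's test. The small nucleolar RNA host genes had 5 rises without WT IL-6 replicate 2, none without STAT3-deficient IL-6 replicate 2, and 1 without either replicate 1 array.

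**Figure D3:**
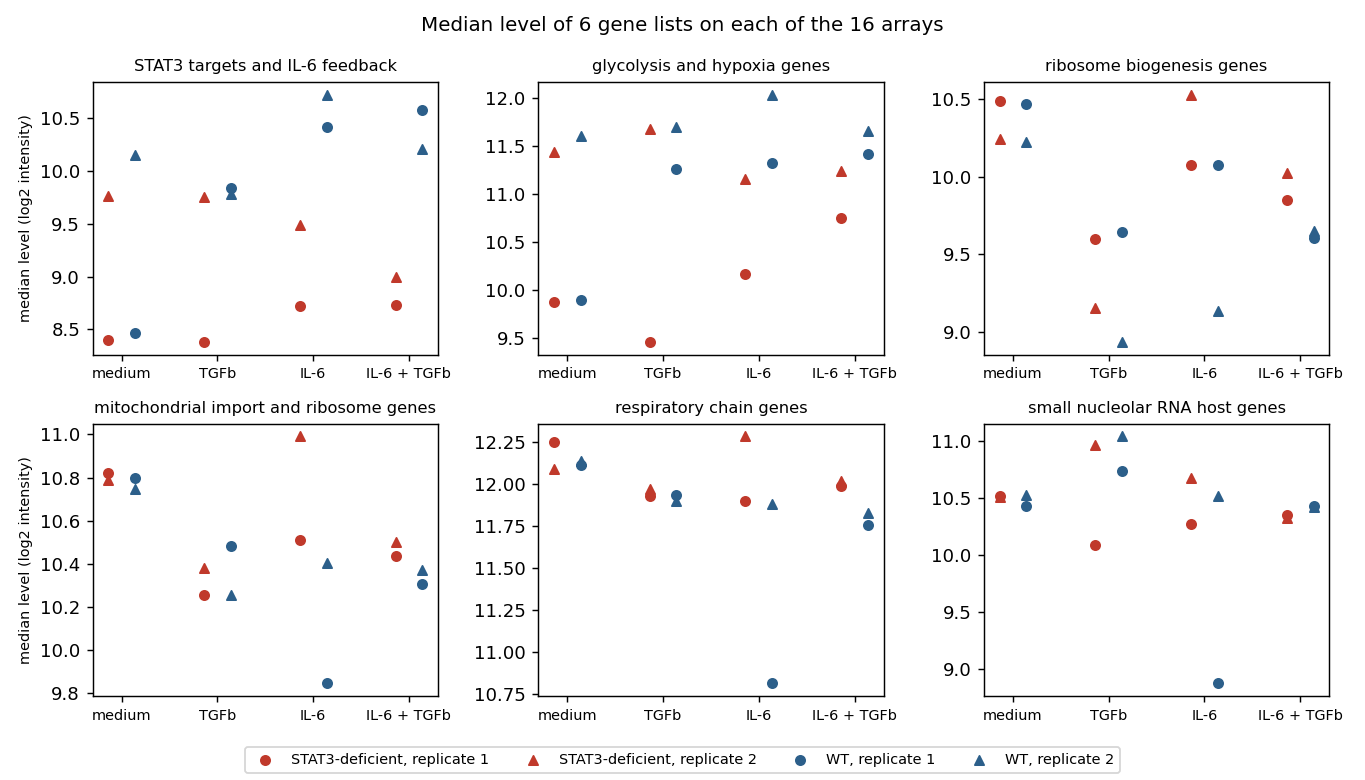
Median level (log2 intensity) of the members of 6 gene lists on each of the 16 arrays, by condition; red is STAT3-deficient, blue WT, circles replicate 1 and triangles replicate 2. WT IL-6 replicate 1 is the lowest array for respiratory chain (10.81) and small nucleolar RNA host genes (8.88), and the STAT3-deficient IL-6 arrays are below both WT IL-6 arrays for STAT3 targets.

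Lists of other helper cell types and of metabolism held few calls. Over all genes 2.73% were called lower and 0.561% higher, and with the block 9.08% and 2.38%. Of 20 Th1 genes, Fasl rose and Hlx, a homeobox factor of Th1 cells, fell by 1.46 (adjusted p = 0.0271). Tbx21, the Th1 master factor, changed by 0.81 (adjusted p = 0.774). Of 18 Th2 genes 2 fell, Ecm1 and the nuclear receptor Pparg (-1.21, adjusted p = 0.0256), whose mean in STAT3-deficient cells was under log2 6. The median change of the list was -1.21, against -0.03 over all genes, and it lay mostly in replicate 1 (-2.37, against -0.13 in replicate 2). Gata3, the Th2 master factor, read 6.97 and 11.11 in STAT3-deficient cells and 11.26 and 10.56 in WT cells, so STAT3-deficient replicate 1 alone was low (adjusted p = 0.416). Of 7 aryl hydrocarbon receptor genes Ahr alone passed, and Tiparp, a target of the receptor, changed by -2.60 (adjusted p = 0.0639 without and 0.00679 with the block).

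Of 17 cytotoxic effector genes Fasl alone was called, and 3 fell with the block, against 9.08% of all genes. These were the granzyme Gzma (-4.35) and the protease inhibitor genes Ctla2a (-3.59) and Ctla2b (-3.87), with adjusted p = 0.0357, 0.049 and 0.0167. Gzma read 5.62 and 7.47 in STAT3-deficient cells and 12.37 and 9.42 in WT cells. Ctla2a and Ctla2b are close copies whose probes may share signal. Of 24 cytokines Il21 alone was called. With the block Penk, the enkephalin precursor, was higher (2.57, adjusted p = 0.0442). Of 63 chaperone and proteasome genes, Psmb6, a catalytic proteasome subunit, alone was called, higher by 0.997 (adjusted p = 0.0431). With the block 5 rose, against 2.38% of all genes.

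In 8 lists limma's test called 0 members. For comparison, 1861 of all 13007 genes were lower and 965 higher at an unadjusted p under 0.05. With the block 9.08% of all genes were called lower and 2.38% higher, and the block counts of these lists are to be read against those shares. Of 27 TGFb response and regulatory T cell genes, 0 were higher and 5 lower at an unadjusted p under 0.05 (median change -0.52), and with the block Ctla4 and the TGFb signal transducer Smad3 changed by -1.55 and -1.66 (adjusted p = 0.0259 and 0.00133). Foxp3, the regulatory T cell factor, was near background on the 4 arrays, at 4.81 and 5.13 in STAT3-deficient and 5.09 and 4.95 in WT cells. Of 20 costimulatory and inhibitory receptors 0 were higher and 4 lower unadjusted, and with the block Ctla4 and Cd28 (-1.36, adjusted p = 0.0193) fell. Of 32 glycolysis and hypoxia genes 1 was higher and 2 lower unadjusted. With the block Pdk1, P4ha1 and Egln1 were lower (-1.56, -1.37 and -1.26) and Eno3 was higher (1.75). The median change of that list was -0.90, and its level in medium differed by over 1.5 log2 units between replicates of a genotype.

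The same background holds for the lists that follow: 1861 of 13007 genes lower and 965 higher unadjusted, and 9.08% and 2.38% with the block. Of 52 cell cycle and DNA replication genes 7 were higher and 0 lower unadjusted (median 0.23). With the block Pola1 and Gins2, both replication factors, were higher by 0.79 and 0.70. Of 26 sterol and fatty acid synthesis genes 0 were higher and 2 lower unadjusted, and with the block Mvd and Hsd17b7, enzymes of cholesterol synthesis, changed by -1.19 and -0.90. Of 40 solute carriers 3 were higher and 5 lower unadjusted, and with the block 1 was higher and 3 lower. The 41 interferon response genes had 2 higher and 0 lower unadjusted (median 0.27), and the 35 amino acid stress, serine and tRNA synthetase genes 1 higher and 1 lower. In the interferon and amino acid lists limma called no member with the block either. The median of the amino acid list was -0.04 as deposited and 0.05 after a further quantile normalization.

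**Figure D4:**
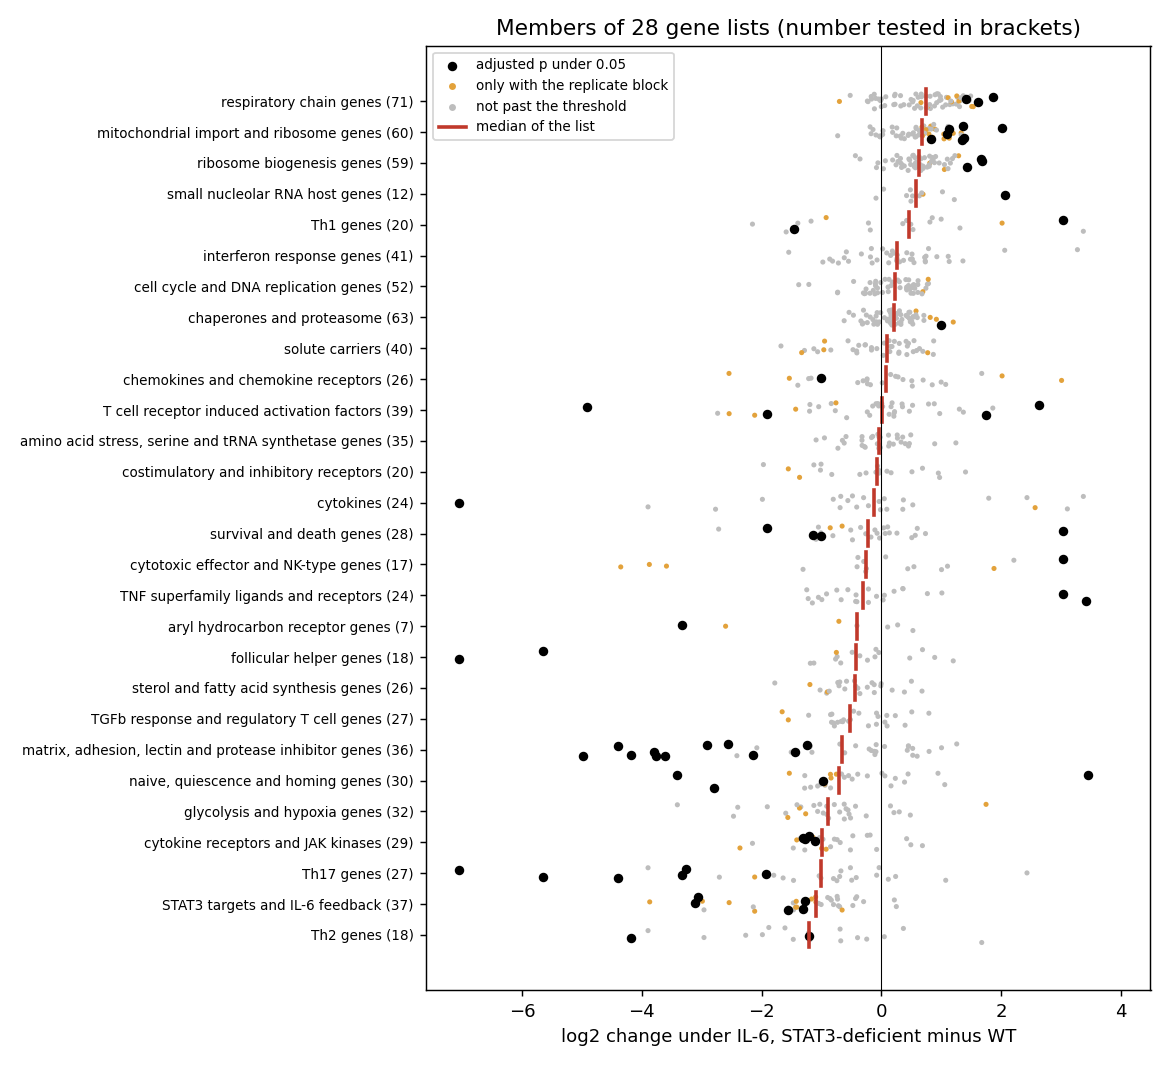
Log2 change under IL-6, STAT3-deficient minus WT, of each measured member of 28 gene lists (number tested in brackets), sorted by the list's median (red bar). Black points passed the test, orange points passed only with the replicate block, and the matrix list holds 11 black points, all below 0.

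Of a panel of 30 genes, 26 were measured and 9 passed, against 3.29% of all genes. Stat3, Il21, Maf, Ahr, Rora, Prdm1 and Jak3 were lower and Tnfsf11 and Fasl higher. With the block 13 passed, against 11.5% of all genes, the 4 more being Socs3, Bcl3, Il6st and Stat5a. Stat3 is the deleted gene. The panel was chosen with earlier results of these data known, so its counts are no independent evidence about the pathway. Il12rb1, a chain of the IL-12 and IL-23 receptors, changed by -0.51 (adjusted p = 0.583).

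T cell markers were high in the cultures, some markers of other cell types were detected, and several of their sums did not overlap between the genotypes. Such a gap is common here: over all genes tested, 27% had non-overlapping groups with STAT3-deficient cells lower and 20% with them higher. All 9 measured T cell markers reached log2 8, and 0 of the CD8 T cell, gamma delta T cell, myeloid, mast cell and erythroid markers did on the IL-6 arrays. A gene's fall can mean less RNA per cell or fewer cells that express it, which bulk arrays cannot tell apart. The summed level of 9 B cell markers was 11.30 to 11.33 in STAT3-deficient and 10.12 to 10.89 in WT cells, with 1 reaching log2 8, Ighm, and Ms4a1 called higher (7.07 and 7.40, against 5.67 and 5.67 in WT cells, adjusted p = 0.022). Of 9 dendritic cell markers 3 reached log2 8, the class II genes H2-Ab1, H2-Aa and Cd74, and the sums were 10.52 on both STAT3-deficient arrays and 11.34 to 11.78 in WT cells. Of 6 NK cell markers Eomes alone did, with sums of 8.85 to 9.35 in STAT3-deficient and 8.19 to 8.38 in WT cells, and of 5 platelet markers Itga2b alone. Of 10 stromal, epithelial and endothelial markers Epcam and Pecam1 did, with sums of 9.34 to 9.68 in STAT3-deficient and 10.30 to 10.82 in WT cells. Among the class II genes H2-Ab1 alone was apart, at 7.34 and 9.06 in STAT3-deficient and 9.97 and 11.32 in WT cells. The CD8 T cell sums were 7.555 to 7.87 in STAT3-deficient and 8.01 to 8.03 in WT cells. Mast cell and basophil sums were 7.775 to 7.954 and 7.665 to 7.755, and platelet sums 9.07 to 9.46 and 8.99 to 9.03, in the same order. The part of these cell types in the results was not tested.

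The next question was whether the difference between genotypes depended on IL-6. In medium limma called 0 of 13007 genes between the genotypes, with and without the block, and 17 and 37 had an unadjusted p under 0.05 without and with it. Stat3 itself differed by -2.05 in medium (unadjusted p = 0.00442, adjusted p = 1), so the count of 0 does not show that the genotypes were alike there. The difference of differences, IL-6 minus medium, passed for 3 genes (0.0231%), all lower: Il21 (-7.11), Maf (-5.69) and Tha1 (-3.04), with adjusted p = 0.0125, 0.0205 and 0.0341. At an unadjusted p under 0.05 the count was 1012. In medium Maf read 4.95 and 5.73 in STAT3-deficient and 5.32 and 5.29 in WT cells, and Tha1 read 6.52 and 6.29 in STAT3-deficient and 5.98 and 6.81 in WT cells. All 3 calls were lost without either STAT3-deficient IL-6 array (adjusted p = 0.084 to 0.171). With the block 17 genes passed (0.131%), 16 lower (0.123%) and 1 higher (0.00769%), Tnfsf11 (3.34, adjusted p = 0.0458). The 16 included Ecm1 (-3.83), Adamtsl4 (-3.77), Gm17767 (-3.30), Trib2 (-3.27), Hhex (-2.70) and Smad3 (-1.94). For most genes called under IL-6 the interaction did not pass, which does not show that their difference was the same in medium.

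The loss of STAT3 under IL-6 was then set beside its loss under IL-6 with TGFb, the Th17 condition. The groups compared share no arrays, but both tests take the spread of a gene from the same fit over all 16 arrays. Their calls are therefore not independent. Under IL-6 with TGFb 155 genes (1.19%) were called, 128 lower (0.984%) and 27 higher (0.208%). Of the falls 48 were shared, which is 13.5% of the 355 under IL-6 and 37.5% of the 128, and of the rises 5 were shared, 6.85% of the 73 and 18.5% of the 27. No gene was called in opposite directions. Without replicate 1 of the STAT3-deficient cells given TGFb, alone or with IL-6, 51 genes were called, 38 lower and 13 higher, and with these arrays exchanged 113. The shared falls were then 15 and 30 and the shared rises 2 and 3. The 15 falls were 4.19% of 358 under IL-6 and 39.5% of the 38. The test of the difference passed for 2 genes (0.0154%), 1 higher and 1 lower (0.00769% each), and 563 had an unadjusted p under 0.05. Hhex was lower without STAT3 under IL-6 alone: under IL-6 with TGFb it read 5.86 and 5.81 in STAT3-deficient and 5.95 and 5.58 in WT cells, near background in both (difference of changes -3.37, adjusted p = 0.0118). Gpr15, a homing receptor for the large intestine, read 5.52 and 5.29 in STAT3-deficient and 5.09 and 4.70 in WT cells under IL-6, and 6.73 and 6.13 in STAT3-deficient against 9.84 and 9.80 in WT cells, with TGFb added (difference 3.90, adjusted p = 0.0118).

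With the block 6 genes passed (0.0461%), 5 higher (0.0384%) and 1 lower (0.00769%), the others being Pdpn (4.35), Lgr4 (3.12), Gli3 (3.00) and Prg4 (2.38), named after their values were seen. In each of these the change under IL-6 with TGFb was the more negative. Maf kept a level of 10.72 and 10.75 in STAT3-deficient cells under IL-6 with TGFb, against 12.58 and 12.51 in WT cells, and it read 11.37 and 10.17 in STAT3-deficient and 9.92 and 9.90 in WT cells with TGFb alone. Its difference between the conditions (-3.84) did not pass (adjusted p = 0.142). Without replicate 1 of the STAT3-deficient cells given TGFb, alone or with IL-6, 2 genes passed this test, Gpr15 among them, while Hhex lost its call (adjusted p = 0.12), and with these arrays exchanged 3 passed. Il21 changed by -7.26 with TGFb present, and Tnfsf11 by 3.49 (adjusted p = 0.00027 and 0.00168). Their differences between the conditions were 0.21 and -0.07 and did not pass.

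**Figure D5:**
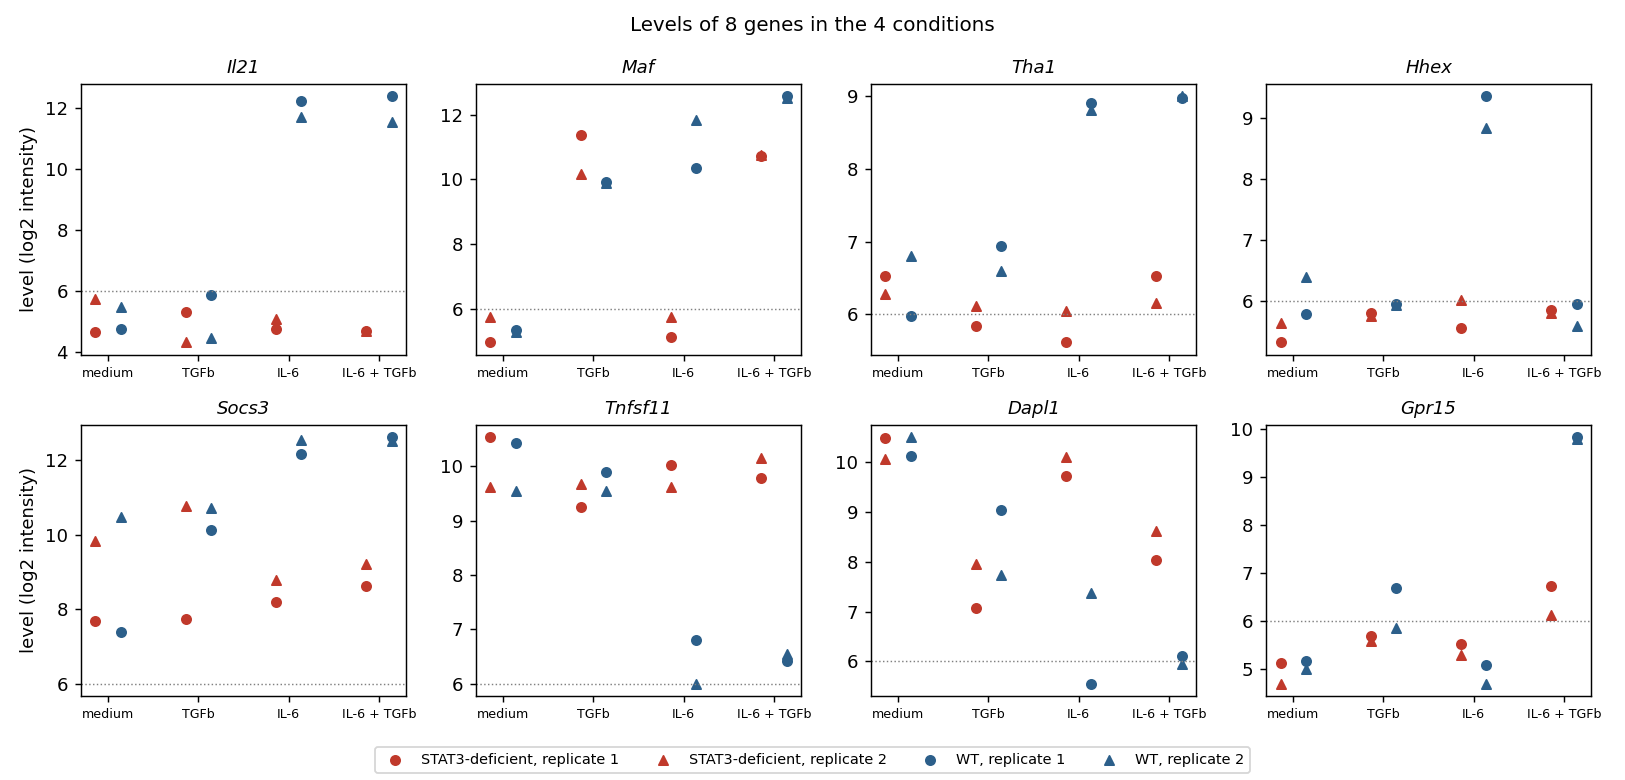
Levels (log2 intensity) of 8 genes on the 16 arrays by condition, red STAT3-deficient and blue WT, circles replicate 1 and triangles replicate 2, with log2 6 dotted. Il21 is above log2 11 in WT cells with IL-6 and below 6 on all other arrays, Hhex is raised only on the WT IL-6 arrays (9.36 and 8.83), and Tnfsf11 is lowest on WT arrays with IL-6.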

How the data were processed

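Total RNA came from a MirVana isolation, and a MessageAmpII kit added the biotin, per the labels' protocols. The authors' deposited intensity values, made with RMA per the submitters' processing notes (version not given in the sources used here), are linear whole numbers between 6 and 37243. How RMA values became linear is not given in the sources used here. Log2 was taken with no pseudocount. Of 45101 probe sets 34945 carried exactly 1 gene symbol in the platform annotation, and each of 18193 genes was represented by its brightest probe set. Genes reaching log2 6 on at least 2 arrays were tested (13007). The number of arrays limits the precision.

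The test was limma 3.58.1 under R 4.3.3 (lmFit, contrasts.fit, eBayes, two-sided) on all 16 arrays with 8 group means, so that groups of 2 share 1 estimate of spread (8 residual degrees of freedom), with Benjamini-Hochberg adjustment over all genes. Same-numbered replicates deviated together in all 28 pairs of groups (correlations 0.107 to 0.863, 0.19 between the IL-6 groups). A fit with the number as a block is therefore given beside the other. Sex and the Actb 5' minus 3' gap both went with the replicate number, so these correlations cannot show that same-numbered samples were prepared together. The pairing comes from the titles, and the block also takes up any difference by sex or RNA quality between replicate 1 and replicate 2.

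Named were Stat3 and its probe sets, a panel, the 20 largest non-overlapping changes each way, up to 4 called members of each list in either fit, and genes of the interactions. The panel, lists and comparisons were chosen with earlier results of these data known. Promoters are from RefSeq (GRCm38.p6).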

Additional observations from a re-analysis of the deposited data

Results flagged for a closer look

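These genes stood out because the effect of STAT3 loss differed between culture conditions in a test of the difference itself. The genotype change under IL-6 minus that in medium was -7.11 for Il21, -5.69 for Maf and -3.04 for Tha1. Each lost its call without either STAT3-deficient IL-6 array (adjusted p = 0.084 to 0.171), without STAT3-deficient medium replicate 2 and without WT medium replicate 1. The genotype change under IL-6 minus that under IL-6 with TGFb was 3.90 for Gpr15 and -3.37 for Hhex. Both lost their call without STAT3-deficient IL-6 replicate 1 (adjusted p = 0.0991), without WT IL-6 replicate 1 (adjusted p = 0.0565 and 0.0586) and without replicate 2 of either genotype under IL-6 with TGFb.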

How the results depend on the processing

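Called genes were 320 to 469 under other level minimums, an offset of 16, quantile normalization, averaged probe sets and a trended prior. The replicate block gave 1490, 17 and 6 genes for STAT3 loss under IL-6, for IL-6 minus medium and for IL-6 minus IL-6 with TGFb, against 428, 3 and 2 without it. With both the block and the Actb 5' minus 3' difference the counts were 410 (230 of them among the 428), 0 and 1, with 1655 unadjusted in limma's test for the second. With the compared arrays only they were 22, 0 (748 unadjusted) and 2. Quantile normalization left 1 gene for IL-6 minus medium, and averaged probe sets gave 4 for IL-6 minus IL-6 with TGFb. Leaving out 1 array gave 27 to 547, 0 to 119 and 0 to 65 genes, the highest each time without WT IL-6 replicate 2, and the zeros with 512 to 1342 and 357 to 604 unadjusted in limma's test. The interaction of Maf with medium was -3.37 with averaged probe sets, where its call was lost (adjusted p = 0.156). Quantile normalization lost those of Maf and Tha1 (adjusted p = 0.0524 and 0.0752). The cause was not tested. Over the 14 or 15 alternatives run for each named gene under IL-6, none reversed as called, and 8 of 63 called genes passed in all. With 2 arrays a group, small changes cannot be resolved, and levels under log2 6 lie near background.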

Other observations

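Of 10092 probe sets without a single gene symbol, 79 differed between STAT3-deficient and WT cells under IL-6 in limma's test, 44 of them higher and the others lower. They were not named.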
